A study of Mus musculus with 21 samples.

Results

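Dendritic cells (DCs) positive for a reporter of Aire, but from mice that the labels name AireKO, were compared between lymph node and bone marrow. The comparison took the 6 libraries whose titles name AGF+ DCs of AireKO mice, 3 from each tissue, out of 21 libraries in the study. The labels give all 6 as from male C57BL/6 mice of 6 weeks with the genotype AGF-KI/-, in which AGF-KI is the Aire reporter knock-in allele, and 3 independent biological replicates were stated per genotype. Lymph node cells were taken after enzymatic digestion from the gate CD45+CD11c+MHCII+. The titles call the lymph node samples LNDC and the marrow samples BMDC. They do not say whether the marrow cells were cultured before sorting, and any such step is part of the preparation. Marrow AGF+ cells were taken from the gate B220−CD24+CD11b−/low, which does not select on CD11c or MHCII. So the tissue, the gate and the preparation cannot be told apart in any difference below. AGF+ cells of AGF-KI/+ mice (KI/+), sorted through the same gates in 3 libraries per tissue, are set beside them, and the AireKO and KI/+ comparisons share no library. The remaining 9 libraries (AGF− lymph node DCs of both genotypes and total marrow DCs of KI/+ mice) are compared with nothing here and entered the scaling, the filter on low counts and the estimate of spread.

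Aire, the autoimmune regulator, is a transcriptional regulator best known for driving tissue-restricted genes in medullary thymic epithelial cells, and it is also expressed by rare antigen-presenting cells outside the thymus. DCs arise from marrow progenitors that depend on the receptor Flt3, and they settle in lymphoid organs, where they sense microbes, present antigen on MHC molecules and steer T cells. Conventional DCs are divided into cDC1 and cDC2, plasmacytoid DCs are specialised in type I interferon, and DCs that mature switch on the chemokine receptor Ccr7 and lower their sensing and uptake genes.

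Each of the 6 libraries held 4164451 to 5597613 counts. Levels are given as CPM, counts scaled to the effective library size, in the order of replicates 1 to 3. A count of 0 in a library allows up to 0.503 to 0.767 CPM, for counting error only. On 6 libraries the first principal component held 83.5% of the variance and separated the tissues, and the second (4.9%) set replicate 2 apart in both. The libraries numbered 2 had 4008 CPM of Xist in lymph node and 3057 CPM in marrow and 0 CPM summed over 4 Y-linked genes, whereas the other 4 had at most 1.51 CPM of Xist and at least 331 CPM of those genes, so the label of male does not match these 2 libraries. The counts of list members given below, where 4 or more, were also taken without the libraries numbered 2. Here and below, that fit left out the library numbered 2 of all 7 groups. Its filter, scaling and estimate of spread were therefore taken anew from fewer libraries. Mitochondrially encoded genes took 1.47% to 1.61% of counts in lymph node and 3.14% to 3.52% in marrow.

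The defining genes of DCs were present in both tissues. Cd74, the MHC class II invariant chain, had 2374, 2667 and 2462 CPM in lymph node against 2618, 2582 and 2976 in marrow, with overlapping groups. Zbtb46, a transcription factor of conventional DCs and their precursors, had 292, 308 and 303 CPM in lymph node against 180.1, 176 and 167 in marrow (log2 fold change 0.79 ± 0.19, adjusted p = 0.00191). Flt3 was likewise higher in lymph node, at 487, 534 and 527 CPM in lymph node against 283, 287 and 311 in marrow (log2 fold change 0.81 ± 0.21, adjusted p = 0.00315), a call lost without the libraries numbered 2 (adjusted p = 0.0588). The genes behind the gates differed: Itgax, which encodes CD11c, had 224, 165 and 142 CPM in lymph node against 129, 51.9 and 16.9 in marrow (log2 fold change 1.41 ± 0.52, adjusted p = 0.0283), with marrow replicate 1 far above the other marrow libraries. This call was lost without any 1 of 4 libraries, lymph node replicates 1 and 2 and marrow replicates 2 and 3 (adjusted p = 0.0523 to 0.13). Cd24a, which encodes CD24, had 18.5, 29.2 and 40.5 CPM in lymph node against 199.7, 157 and 188 in marrow (log2 fold change -2.64 ± 0.32, adjusted p = 1.1e-06). Itgam, which encodes CD11b, had 36.6, 35.9 and 31.7 CPM in lymph node against 7.35, 6.22 and 8.18 in marrow (log2 fold change 2.26 ± 0.31, adjusted p = 4.2e-06). Ptprc, which encodes CD45, was at 883, 902 and 940.2 CPM in lymph node against 515, 527 and 437 in marrow, and the B220 isoform cannot be told from other Ptprc transcripts at this level.

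Across 17265 genes tested, 4436 were higher in lymph node (25.7%) and 4439 were lower (25.7%), together 51.4%, by edgeR's quasi-likelihood test with Benjamini-Hochberg adjustment at the 0.05 level. Of these, 2359 higher genes (13.7%) and 2729 lower genes (15.8%) also differed by 2-fold or more, and for 11143 genes (64.5%), called or not, the libraries of the tissues did not overlap. Changes of at least 8-fold were more often lower in lymph node, with 823 genes against 347. The median log2 fold change over all genes was 0.04. With library size alone as the scale this median was 0.19, and 5546 genes were higher and 3683 lower. Fold changes are lymph node over marrow throughout, on the log2 scale, with the standard error. Without the libraries numbered 2, 2879 genes were higher and 3405 lower. Because 51.4% of all genes passed, the members of each gene list are read against 25.7% in each direction.

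The largest rises in lymph node among well-measured genes were led by Dpp10, a modulator of potassium channels, at 101, 132 and 137 CPM in lymph node against 3.39, 4.07 and 4.86 in marrow (log2 fold change 4.91 ± 0.36, adjusted p = 8.1e-10). Fgr, a kinase of the Src family, had 165, 143 and 146 CPM in lymph node against 7.54, 7.29 and 6.14 in marrow (log2 fold change 4.42 ± 0.23, adjusted p = 9.2e-12). Next came the flagellin receptor Tlr5, with 85.4, 74.3 and 61.1 CPM in lymph node against 4.9, 2.79 and 2.81 in marrow, and Btla, an inhibitory receptor of the CD28 family that binds HVEM, with 138, 107 and 155 CPM in lymph node against 6.03, 7.08 and 7.67 in marrow. Receptors for cytokines stood among these genes too. Il13ra1, a chain of the receptors for IL-13 and IL-4, had 236, 248 and 255 CPM in lymph node against 26.8, 12 and 12.3 in marrow (log2 fold change 3.83 ± 0.24, adjusted p = 1.2e-10). Il6ra, the IL-6 receptor, had 184, 175 and 127 CPM in lymph node against 18.1, 10.1 and 8.18 in marrow (log2 fold change 3.71 ± 0.24, adjusted p = 2.0e-10). The non-classical MHC gene H2-M2 had 109, 175 and 137 CPM in lymph node against 10.9, 12.7 and 7.93 in marrow. The other rises of this rank were Susd2, Tlr1, Ankrd35, Pak1, Extl1 and Rgl1, with log2 fold changes of 3.47 to 4.07. None of the 13 had libraries that overlapped between the tissues, which the rule for naming them required.

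Under the same cut the largest falls were steeper. It left out the chemokine Ccl24 (log2 fold change -10.26 ± 0.48), whose levels are given below. Abi3bp, an extracellular matrix protein, had 1.01, 1.81 and 1.44 CPM in lymph node against 475, 444 and 407 in marrow (log2 fold change -8.28 ± 0.62, adjusted p = 1.1e-09). Tcaf2, a regulator of TRPM8 channels, had 2.52, 2.62 and 3.7 CPM in lymph node against 639, 827 and 765 in marrow (log2 fold change -7.98 ± 0.55, adjusted p = 4.6e-10). Thy1, the surface glycoprotein CD90, known from T cells and some progenitors and innate lymphocytes, had 3.02, 0.403 and 1.85 CPM in lymph node against 263, 295 and 311 in marrow (log2 fold change -7.29 ± 0.79, adjusted p = 2.2e-07). Cish, a cytokine-induced inhibitor of STAT5 signalling, had 1.85, 1.61 and 2.88 CPM in lymph node against 250.2, 235 and 268 in marrow (log2 fold change -6.89 ± 0.34, adjusted p = 6.3e-12), and the chemokine Ccl17 had 6.38, 4.23 and 8.22 CPM in lymph node against 569, 532 and 508 in marrow (log2 fold change -6.41 ± 0.37, adjusted p = 3.7e-11). Pdcd1lg2, the PD-1 ligand PD-L2, had the smallest adjusted p of the 13 described, at 6.54, 5.64 and 9.66 CPM in lymph node against 365, 256 and 299.9 in marrow (log2 fold change -5.40 ± 0.20, adjusted p = 4.1e-13). Marrow levels were highest for Mylk, myosin light chain kinase, with 15.1, 21.1 and 35.4 CPM in lymph node against 1110.5, 1042 and 1374 in marrow (log2 fold change -5.63 ± 0.43, adjusted p = 1.5e-09), and for Nrg1, the growth factor neuregulin, with 8.89, 22 and 23 CPM in lymph node against 736, 843 and 715 in marrow (log2 fold change -5.43 ± 0.38, adjusted p = 5.6e-10). Cdh1, which encodes E-cadherin, had 2.18, 2.01 and 2.06 CPM in lymph node against 136, 148 and 144 in marrow. Thbs1, Khdc1a, Neb and Tgm2 made up the rest, with log2 fold changes of -6.26 to -5.25.

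**Figure D1:**
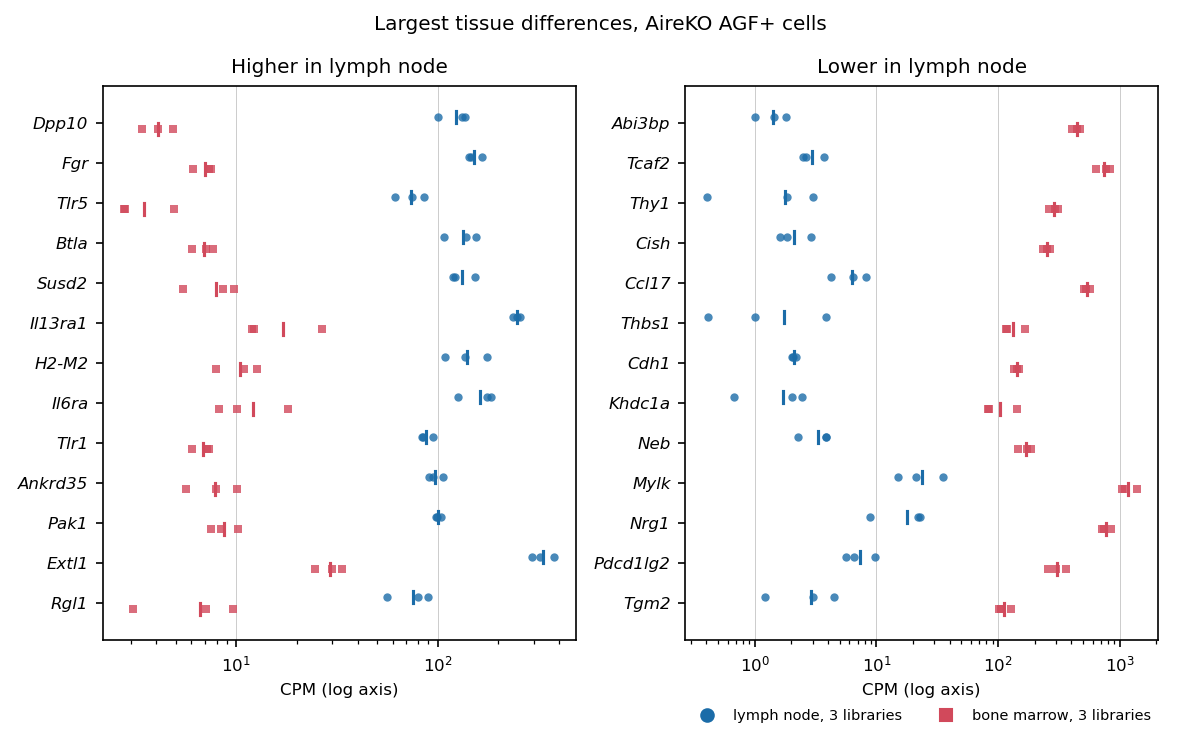
CPM on a log axis for 13 of the largest rises and 13 of the largest falls among genes that passed the cut on mean level. Blue circles are the 3 lymph node and red squares the 3 marrow libraries of AireKO AGF+ cells, and short vertical bars are group means. In each gene the circles and squares stand apart, with marrow levels of 2.79 to 33.5 CPM for the rises and lymph node levels of 0.403 to 35.4 CPM for the falls.

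Genes of the cell cycle were lower in lymph node almost throughout. Of 31 members tested, 29 were lower in lymph node and 1 was higher, with a median log2 fold change of -3.81 against 0.04 over all genes. Top2a, the topoisomerase that untangles replicated chromosomes, had 23.7, 24.8 and 24.9 CPM in lymph node against 472, 455 and 562 in marrow (log2 fold change -4.34 ± 0.25, adjusted p = 5.0e-11). Ccnb2, a mitotic cyclin, had 1.68, 2.22 and 2.88 CPM in lymph node against 41.6, 45.5 and 53.9 in marrow (log2 fold change -4.38 ± 0.25, adjusted p = 3.0e-11), and the kinetochore gene Cenpf had 1.51, 3.22 and 3.08 CPM in lymph node against 81, 74.4 and 104 in marrow (log2 fold change -5.07 ± 0.32, adjusted p = 1.3e-10). The centromeric histone variant Cenpa and the spindle checkpoint kinase Bub1b fell by 3.79 and 3.18 on the log2 scale. Mki67, the proliferation marker Ki-67, had 40.8, 41.9 and 64.8 CPM in lymph node against 559, 546 and 688 in marrow. Every one of these genes had all marrow libraries above all lymph node libraries by several fold. Ccnd3, a D-type cyclin, moved the other way, at 87.9, 103 and 76.9 CPM in lymph node against 61.4, 61.8 and 73.4 in marrow (log2 fold change 0.45 ± 0.18, adjusted p = 0.0414), and lost its call without replicate 1 or 2 of either tissue and without the libraries numbered 2 (adjusted p = 0.0939 to 0.374). The count of 29 was the same under every alternative run, and KI/+ cells also had 29 lower and 1 higher.

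Genes of DNA replication moved with them, with 27 of 29 lower in lymph node, 0 higher and a median of -2.01. Rrm2, the regulated subunit of ribonucleotide reductase, had 2.85, 3.22 and 4.73 CPM in lymph node against 72.5, 81.3 and 98.9 in marrow (log2 fold change -4.55 ± 0.33, adjusted p = 8.3e-10). Tyms, thymidylate synthase, had 15.4, 13.7 and 18.1 CPM in lymph node against 106, 99.7 and 129.6 in marrow (log2 fold change -2.83 ± 0.18, adjusted p = 2.0e-10). The replication initiation factors Mcm10 and Cdc45 fell by 4.10 and 3.62 on the log2 scale, and Dut, which removes dUTP, fell by 2.99. The replicative helicase subunit Mcm6, the highest of the helicase genes, had 57.9, 67.9 and 77.3 CPM in lymph node against 264, 252 and 303 in marrow. Cdt1 (-0.42 ± 0.27, adjusted p = 0.206, or 0.0488 without lymph node replicate 3) and Orc1 (-0.06 ± 0.18, adjusted p = 0.802), both of origin licensing, did not pass. In bulk samples fewer cells of a type and less RNA per cell cannot be told apart, so these levels do not separate a smaller share of dividing cells from less of each transcript per cell.

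**Figure D2:**
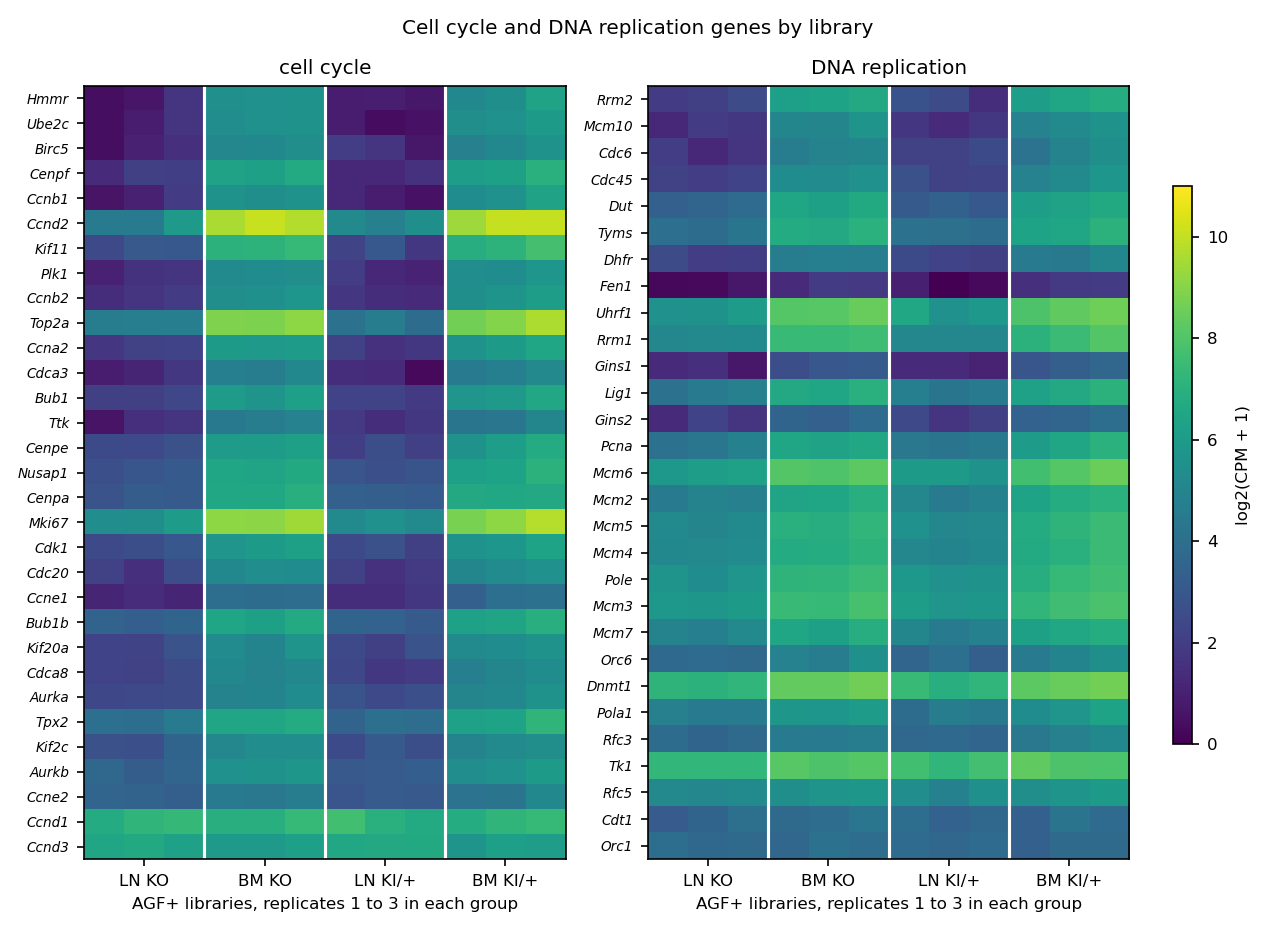
Heat map of log2(CPM + 1) for the members of the cell cycle and DNA replication lists (rows, ordered by the AireKO fold change) in the 12 AGF+ libraries (columns: lymph node (LN) AireKO, marrow (BM) AireKO, lymph node KI/+, marrow KI/+, replicates 1 to 3). Marrow columns are brighter than lymph node columns of the same genotype for most rows, and the lowest rows of each map are about even.

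Since these 2 lists moved together, their promoters are shown. Of the 31 cell cycle genes 24, and of the 29 replication genes 24, have an entry in the RefSeq promoter set (GRCm38.p6, 250 bases before to 50 after the transcription start). The 4 below were chosen because Ccnb2, Top2a and Cenpf were among the cell cycle genes with the smallest adjusted p, and because Mcm6 holds the E2F motif. Capitals mark, on either strand, the CCAAT box (CCAAT) in all 4, the CHR element (cell cycle genes homology region, TTTGAA) in the first 3, and the E2F motif (TTCCCGC or TTGGCGC) in Mcm6. All are written 5′ to 3′ on the strand of the gene.
Ccnb2 promoter, chr9:70421505-70421804, minus strand: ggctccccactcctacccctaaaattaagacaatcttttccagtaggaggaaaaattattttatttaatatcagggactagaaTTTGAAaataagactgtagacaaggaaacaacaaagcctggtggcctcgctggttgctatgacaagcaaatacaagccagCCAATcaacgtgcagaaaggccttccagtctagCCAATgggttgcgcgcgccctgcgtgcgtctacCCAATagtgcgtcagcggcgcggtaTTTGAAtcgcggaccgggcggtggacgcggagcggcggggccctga
Top2a promoter, chr11:99024140-99024439, minus strand: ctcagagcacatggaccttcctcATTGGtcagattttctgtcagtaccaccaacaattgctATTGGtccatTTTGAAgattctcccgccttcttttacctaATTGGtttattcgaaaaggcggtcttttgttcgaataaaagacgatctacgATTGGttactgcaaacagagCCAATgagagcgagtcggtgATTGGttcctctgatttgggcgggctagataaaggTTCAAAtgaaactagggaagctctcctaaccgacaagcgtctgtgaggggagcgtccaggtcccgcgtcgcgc
Cenpf promoter, chr1:189688037-189688336, minus strand: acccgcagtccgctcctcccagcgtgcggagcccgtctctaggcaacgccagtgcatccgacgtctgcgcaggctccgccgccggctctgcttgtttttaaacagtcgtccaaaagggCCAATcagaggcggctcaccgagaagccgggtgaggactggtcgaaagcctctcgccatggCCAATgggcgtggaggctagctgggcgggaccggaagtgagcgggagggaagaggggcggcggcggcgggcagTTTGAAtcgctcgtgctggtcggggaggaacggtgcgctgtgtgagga
Mcm6 promoter, chr1:128359656-128359955, minus strand: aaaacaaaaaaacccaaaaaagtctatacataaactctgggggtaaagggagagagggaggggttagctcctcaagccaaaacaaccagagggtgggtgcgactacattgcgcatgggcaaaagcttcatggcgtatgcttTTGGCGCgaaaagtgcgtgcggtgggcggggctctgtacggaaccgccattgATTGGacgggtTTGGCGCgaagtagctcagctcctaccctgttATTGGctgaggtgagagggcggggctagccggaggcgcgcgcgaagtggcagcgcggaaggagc

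In Ccnb2 the window held 3 CCAAT boxes and 2 CHR elements, with the last CHR at base 5 after the start. Top2a held 6 CCAAT boxes and 2 CHR elements, and Cenpf held 2 CCAAT boxes and 1 CHR element at base 3. Over the list, 19 of 24 cell cycle promoters (79.2%) held a CCAAT box and 17 of 24 (70.8%) a CHR element, beside 38.4% and 12.7% of the 11025 promoters of genes tested. Replication promoters held a CCAAT box in 16 of 24 (66.7%), a CHR element in 4 (16.7%) and an E2F motif in 10 (41.7%), beside 11.9% of promoters of genes tested for E2F. The E2F motif stood in 3 of 24 cell cycle promoters (12.5%). These are matches of letters in a fixed window and say nothing of binding.

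Haematopoietic progenitor genes were mostly lower in lymph node, 17 of 26 tested, with 3 higher and a median of -1.74, or -1.45 with the gene at 0 counts in lymph node set to its bound. Meis1, a homeobox factor of stem and progenitor cells, had 33.1, 39.5 and 31.2 CPM in lymph node against 144, 160.4 and 181 in marrow (log2 fold change -2.22 ± 0.19, adjusted p = 7.9e-09). Erg, an ETS factor of stem cells, had 0, 0.201 and 0 CPM in lymph node against 16.6, 12.9 and 21.5 in marrow, a ratio of 264-fold with a 95% counting interval of 46.9 to 10470. Here and below, such an interval covers counting error alone, from counts pooled over the libraries of each group. It leaves out the spread between libraries. Angpt1, a niche growth factor, had 1.34, 1.61 and 1.03 CPM in lymph node against 11.7, 15.9 and 8.95 in marrow. Kit, the stem cell factor receptor, differed little, at 233, 229 and 205 CPM in lymph node against 286, 286 and 303 in marrow (log2 fold change -0.39 ± 0.12, adjusted p = 0.0128), and did not pass without the libraries numbered 2 (adjusted p = 0.0805). Cebpa, a driver of myeloid fate, and Lmo2, a transcriptional cofactor, moved the other way, with log2 fold changes of 1.71 ± 0.24 and 1.03 ± 0.23. Summed over the list the level was 1201 to 1255 CPM in lymph node and 1467 to 1548 CPM in marrow, and Prom1 was at 0 counts in all 6 libraries.

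Genes of early B cells and antigen receptor recombination followed the same direction, 12 of 18 lower and 4 higher, with a median of -1.15. Dntt, the polymerase that adds bases at V(D)J joints, had 0.336, 0 and 0 CPM in lymph node against 57.9, 78.9 and 59.6 in marrow, 516-fold lower in lymph node with a counting interval of 142.5 to 4270. Ebf1, the factor that sets B cell identity, was at 5.2, 3.83 and 5.14 CPM in lymph node against 2.64, 3.86 and 1.53 in marrow and did not pass. Of the mature B and plasma cell list 11 of 20 were lower and 5 higher. Blk, a Src-family kinase of B cells, had 0.336, 2.42 and 1.64 CPM in lymph node against 83.5, 70.8 and 118 in marrow (log2 fold change -5.98 ± 0.43, adjusted p = 7.4e-10). Cd22, an inhibitory lectin of B cells, went against this, at 13.3, 16.5 and 16.2 CPM in lymph node against 0.377, 0.858 and 0 in marrow. Ms4a1, which encodes CD20, was at 1.51, 2.42 and 4.73 CPM in lymph node against 2.83, 5.15 and 3.84 in marrow and did not pass. The mature list summed to 824 to 884 CPM in lymph node and 1174 to 1235 CPM in marrow, with Mzb1 at 0 counts in marrow. The part of B lineage cells in these differences was not tested.

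Markers of other cells were low or mixed. Of the 20 T cell markers, 8 were higher in lymph node and 1 lower, but 3 were higher without lymph node replicate 3 or any 1 marrow library, 5 without the libraries numbered 2, and 2 at an adjusted p under 0.01. Cd3d was at 0.503, 0.403 and 1.23 CPM in lymph node against 0.377, 0 and 0 in marrow, near the floor, while Cd4, which DCs also express, had 36.9, 32.2 and 20.1 CPM in lymph node against 1.13, 2.14 and 0.511 in marrow and Cd8a had 33.4, 65.7 and 47.5 CPM in lymph node against 9.99, 10.5 and 9.46 in marrow. Summed, the T cell list was 374 to 543 CPM in lymph node and 492 to 548 CPM in marrow. Of 19 NK cell and granule genes, 3 were higher and 4 lower. Gzmb, granzyme B, had 0 counts in all lymph node libraries and 123, 69.5 and 127 CPM in marrow, at least 558-fold lower in lymph node against a floor of 3 counts over the group. Eomes, a factor of NK and memory T cells, was also lower, at 0, 0 and 0.206 CPM in lymph node against 2.64, 4.29 and 3.32 in marrow, and Tbx21, which encodes T-bet, was higher, at 3.36, 2.01 and 4.73 CPM in lymph node against 0.188, 0 and 0 in marrow. The NK receptors Ncr1 and Klrb1c were at 0 counts in all marrow libraries and at most 0.604 CPM in lymph node.

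Of 31 monocyte and macrophage markers, 14 were higher in lymph node and 6 lower, with a median of 1.25. Lyz2, lysozyme, had 257, 204 and 154 CPM in lymph node against 45, 18.4 and 19.9 in marrow (log2 fold change 2.87 ± 0.41, adjusted p = 8.5e-06). Apoe had 133, 31 and 27.5 CPM in lymph node against 2.83, 5.36 and 2.05 in marrow, with lymph node replicate 1 far above the other lymph node libraries. Without that replicate 10 markers were higher. Mrc1, the mannose receptor CD206, had 9.23, 3.22 and 0.822 CPM in lymph node against 62.8, 41 and 40.1 in marrow (log2 fold change -3.37 ± 0.48, adjusted p = 7.1e-06), and the efferocytosis receptor Mertk had 4.87, 2.42 and 1.03 CPM in lymph node against 26.6, 28.7 and 15.6 in marrow. In the neutrophil list 6 of 12 tested were lower and 1 higher, led by the chitinase-like Chil3 at 0.168, 0.403 and 0.206 CPM in lymph node against 131, 59.2 and 42.2 in marrow. The count of 6 was 3 without marrow replicate 1 and without the libraries numbered 2. Of the 25 genes in this list, 6 were at 0 counts in all lymph node libraries and 3 in all marrow libraries. Ctsg and Ly6g were at 0 counts in both tissues. S100a8 and S100a9 had 0 counts in lymph node, and 33 and 30 counts summed over the marrow libraries. Marrow replicate 1 was highest for Chil3 and Mrc1 as well as Itgax. The parts that such cells take in these levels were not tested.

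Among DC subset genes, cDC2 markers were mostly higher in lymph node, 11 of 18 with 4 lower and a median of 1.19. The 11 include Itgam, whose product CD11b is part of the marrow gate. The 4 lower members were Clec10a (log2 fold change -1.96 ± 0.32), Mgl2 (-1.15 ± 0.27), Rbpj and Irf4. Summed, the list overlapped between the tissues, at 1678 to 1887 CPM in lymph node and 1483 to 1812 CPM in marrow. Clec12a, an inhibitory C-type lectin, had 46.1, 38.1 and 47.5 CPM in lymph node against 6.97, 3.65 and 2.3 in marrow (log2 fold change 3.29 ± 0.34, adjusted p = 1.3e-07). Ltb, lymphotoxin beta, had 140.3, 138 and 148 CPM in lymph node against 34.1, 41.4 and 43.5 in marrow (log2 fold change 1.85 ± 0.18, adjusted p = 3.4e-08). Rbpj, the nuclear effector of Notch, and Irf4, the cDC2 factor, were lower, at 105, 101 and 108 CPM in lymph node against 427, 297 and 335 in marrow and 136, 149 and 223 CPM in lymph node against 412, 355 and 338 in marrow. Of 17 cDC1 markers tested 7 were higher and 5 lower. The lower ones were Cd24a, described above, Sept3, Gcsam, Itgae and the transcription factor Irf8, with log2 fold changes of -2.64 to -1.25. The profilin and nucleic acid sensors Tlr11 and Tlr3 were higher, with log2 fold changes of 4.39 ± 0.36 and 3.07 ± 0.49, and Xcr1, the receptor that defines cDC1, was low in both, at 4.53, 3.02 and 4.11 CPM in lymph node against 0.188, 0.429 and 0.767 in marrow. The summed level of the list was 1454 to 1658 CPM in marrow and 1036 to 1133 CPM in lymph node.

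Plasmacytoid DC genes were lower in lymph node for 10 of 18 and higher for 2, with a median of -1.0. Tcf4, the factor that sets plasmacytoid fate, had 323, 324 and 292 CPM in lymph node against 1113, 1037 and 1192 in marrow (log2 fold change -1.83 ± 0.15, adjusted p = 3.0e-09). Siglech, a surface lectin of these cells, had 11.7, 9.47 and 4.52 CPM in lymph node against 68, 76.3 and 67 in marrow (log2 fold change -3.02 ± 0.60, adjusted p = 3.2e-04). Ly6d had 1.51, 1.01 and 2.06 CPM in lymph node against 10.6, 25.5 and 16.9 in marrow. Atp1b1, a sodium pump subunit, moved the other way, at 34.9, 47.3 and 41.9 CPM in lymph node against 3.2, 1.72 and 4.6 in marrow. The list of Langerhans and skin-derived DC genes held 10 lower and 1 higher of 15. Cdh1 and Ccl22 were among the lower members. The defining gene of the list, Cd207 (langerin), was at 0 counts in all marrow libraries and at most 0.822 CPM in lymph node.

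Maturation genes split. Of 35 genes of mature Ccr7+ DCs, 13 were lower in lymph node and 10 higher, with a median of -0.12. Ccr7 itself had 163, 239 and 246 CPM in lymph node against 1061, 932 and 1012 in marrow (log2 fold change -2.21 ± 0.32, adjusted p = 9.1e-06). Cd83, a surface marker of mature DCs, had 175, 179 and 294 CPM in lymph node against 917, 872 and 1034 in marrow (log2 fold change -2.12 ± 0.25, adjusted p = 5.7e-07). Stat4, which carries IL-12 signals, had 17.6, 17.3 and 23.8 CPM in lymph node against 322, 257 and 299 in marrow (log2 fold change -3.90 ± 0.29, adjusted p = 9.1e-10). Fabp5, a fatty acid carrier, had 81.4, 103 and 158 CPM in lymph node against 721, 514 and 619 in marrow. Others were higher in lymph node. Ebi3, shared by IL-27 and IL-35, had 40.8, 43.7 and 58 CPM in lymph node against 14.7, 18.9 and 21.5 in marrow. Il15ra, which presents IL-15, had 133, 147 and 177 CPM in lymph node against 61.8, 98.4 and 54.2 in marrow. Fscn1, the actin bundler of mature DCs, was at 1259, 1334 and 1770.2 CPM in lymph node against 1079.8, 1132 and 1187 in marrow (log2 fold change 0.36 ± 0.25, adjusted p = 0.234). By edgeR it passed when the 6 libraries were fitted alone (adjusted p = 0.0279) and with no filter on low counts (adjusted p = 0.0328). The costimulatory ligands Cd80 and Cd86 had 101, 104 and 115 CPM in lymph node against 301, 289 and 278 in marrow and 157, 144 and 244 CPM in lymph node against 543, 559 and 540.5 in marrow. In the costimulation and checkpoint list 8 of 21 were higher and 8 lower, with Btla and Vsir, an inhibitory ligand at 76.2, 68.7 and 59 CPM in lymph node against 23.6, 12.9 and 16.4 in marrow, on one side and Pdcd1lg2 and Nectin2 (11.7, 8.06 and 8.84 CPM in lymph node against 58, 46.1 and 50.1 in marrow) on the other.

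Chemokines separated the tissues by level more than by number of genes. Of 21 tested, 6 were lower in lymph node and 5 higher, but the list summed to 711 to 986 CPM there and 3828 to 4248 CPM in marrow. Most of this was Ccl22, a ligand of Ccr4, with 191, 161 and 287 CPM in lymph node against 2945, 2612 and 2843 in marrow (log2 fold change -3.72 ± 0.37, adjusted p = 7.8e-08). Ccl17, the other ligand of Ccr4, was described above. Ccl24, an eotaxin, had 0.168, 0.201 and 0 CPM in lymph node against 214, 234 and 108 in marrow, 1503-fold lower in lymph node with a counting interval of 416 to 12420. Cxcl13, a B cell attractant, was at 0 counts in marrow and 0.503, 3.42 and 6.99 CPM in lymph node, at least 15.8-fold higher, a call lost without the libraries numbered 2 (adjusted p = 0.0531). Without marrow replicate 1 the count of lower chemokines was 4. The count of higher chemokines was 2 without marrow replicate 3 and 3 without marrow replicate 1 or lymph node replicate 1 or 3.

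Receptors for chemokines and egress signals were lower in lymph node for 12 of 23 and higher for 4, with a median of -1.35. Ccr4 had 0.336, 0.201 and 0.206 CPM in lymph node against 52, 44.6 and 60.1 in marrow (log2 fold change -7.56 ± 0.40, adjusted p = 1.2e-11). S1pr3, a receptor for sphingosine-1-phosphate, had 9.23, 9.47 and 13.6 CPM in lymph node against 91, 90.3 and 109.9 in marrow (log2 fold change -3.18 ± 0.28, adjusted p = 1.2e-08). Gpr183, the oxysterol receptor that positions DCs, had 169, 198 and 229.6 CPM in lymph node against 507, 396 and 599 in marrow (log2 fold change -1.33 ± 0.15, adjusted p = 3.3e-07). Cxcr5, the receptor for Cxcl13, had 4.87, 3.63 and 10.7 CPM in lymph node against 32, 33.7 and 42.2 in marrow. Without lymph node replicate 1 the count of higher receptors was 2. The fractalkine receptor Cx3cr1 and Xcr1 were higher, with log2 fold changes of 3.22 ± 0.58 and 3.10 ± 0.66. Ccr2, the receptor for egress from marrow, overlapped between the groups, at 4.53, 2.01 and 1.23 CPM in lymph node against 15.1, 5.15 and 2.56 in marrow (log2 fold change -1.55 ± 0.67, adjusted p = 0.0596), and it passed without lymph node replicate 1 or without marrow replicate 2 or 3 (adjusted p = 0.0218 to 0.0488). With all 6 libraries it passed by the DESeq2 Wald test (adjusted p = 0.0464). By edgeR it passed when the 6 libraries were fitted alone (adjusted p = 0.047) and with no filter on low counts (adjusted p = 4.29e-08).

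Innate sensors were mostly higher in lymph node, 19 of 28 against 2 lower and a median of 0.72. Tlr1, which pairs with TLR2, had 83.6, 84.2 and 94.6 CPM in lymph node against 7.35, 6 and 7.16 in marrow (log2 fold change 3.67 ± 0.22, adjusted p = 5.6e-11). Tlr6, its relative, had 29.9, 23.4 and 29.2 CPM in lymph node against 4.33, 4.93 and 3.07 in marrow (log2 fold change 2.72 ± 0.22, adjusted p = 3.4e-09). Tlr5 and Tlr11 were named above. Dhx58, the RNA helicase LGP2, went the other way, at 28.4, 30.6 and 26.5 CPM in lymph node against 115, 195 and 181 in marrow (log2 fold change -2.52 ± 0.19, adjusted p = 1.0e-09), as did Tlr7, a receptor for single-stranded RNA, at 6.71, 3.83 and 3.29 CPM in lymph node against 16.2, 37.3 and 15.1 in marrow. The count was 15 without marrow replicate 1 and 18 without the libraries numbered 2. In KI/+ cells 15 were higher and 2 lower.

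Cytokine genes moved in both directions. Of 20 DC cytokines, 9 were higher and 5 lower, with a median of 0.94. Il6 had 0.168, 0.201 and 1.44 CPM in lymph node against 36, 34.3 and 33.7 in marrow (log2 fold change -5.86 ± 0.40, adjusted p = 3.5e-10). Il12a, the p35 chain of IL-12, had 0.336, 0.201 and 0.617 CPM in lymph node against 7.35, 8.15 and 7.67 in marrow (log2 fold change -4.26 ± 0.48, adjusted p = 3.3e-07). Il18 was higher in lymph node, at 14.3, 12.7 and 13.8 CPM in lymph node against 0.754, 0.214 and 0.256 in marrow (log2 fold change 4.90 ± 0.46, adjusted p = 2.9e-08). So was Tnf, at 17.6, 19.1 and 30.6 CPM in lymph node against 3.39, 5.15 and 0.767 in marrow (log2 fold change 2.80 ± 0.42, adjusted p = 1.2e-05). Of 26 receptors for cytokines and growth factors, 13 were higher and 9 lower. Il4ra, the IL-4 receptor chain, had 127, 158 and 218 CPM in lymph node against 732, 866 and 941 in marrow (log2 fold change -2.34 ± 0.21, adjusted p = 1.9e-08). Il1r1, the IL-1 receptor, had 57.7, 58.4 and 49.1 CPM in lymph node against 272, 310.3 and 318 in marrow (log2 fold change -2.45 ± 0.20, adjusted p = 5.0e-09). Csf2ra, the GM-CSF receptor chain, was higher, at 286, 263 and 293 CPM in lymph node against 76.9, 76.6 and 64.2 in marrow (log2 fold change 1.95 ± 0.15, adjusted p = 1.2e-09).

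The pathway from RANK to NF-kB, which induces Aire in thymic epithelium, had 16 of 29 members higher and 6 lower in lymph node, with a median of 0.38. Tnfsf11, which encodes RANK ligand, had 0, 0 and 0.206 CPM in lymph node against 28.3, 22.1 and 36.8 in marrow, 452-fold lower in lymph node with a counting interval of 80.6 to 17880. Its receptor Tnfrsf11a did not pass, at 202, 243 and 254 CPM in lymph node against 267, 233 and 239.6 in marrow (log2 fold change -0.08 ± 0.19, adjusted p = 0.75), and the sign of its change turned to 0.07 with library size alone. Nfkb1, the p105 precursor, had 497, 539.8 and 534 CPM in lymph node against 1391, 1315 and 1485 in marrow (log2 fold change -1.42 ± 0.10, adjusted p = 4.3e-10). Map3k14, the kinase NIK of the alternative arm, had 126, 109 and 137 CPM in lymph node against 508, 495 and 553 in marrow (log2 fold change -2.07 ± 0.22, adjusted p = 1.6e-07). Ikbkb, a kinase of the classical arm, was higher, at 753, 766 and 796 CPM in lymph node against 391, 416 and 370.2 in marrow (log2 fold change 0.98 ± 0.10, adjusted p = 4.9e-08), as was Relb, the subunit of the alternative arm, at 527, 527 and 554 CPM in lymph node against 269, 248 and 288 in marrow. Tested against a 1.5-fold change, 6 were higher.

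**Figure D3:**
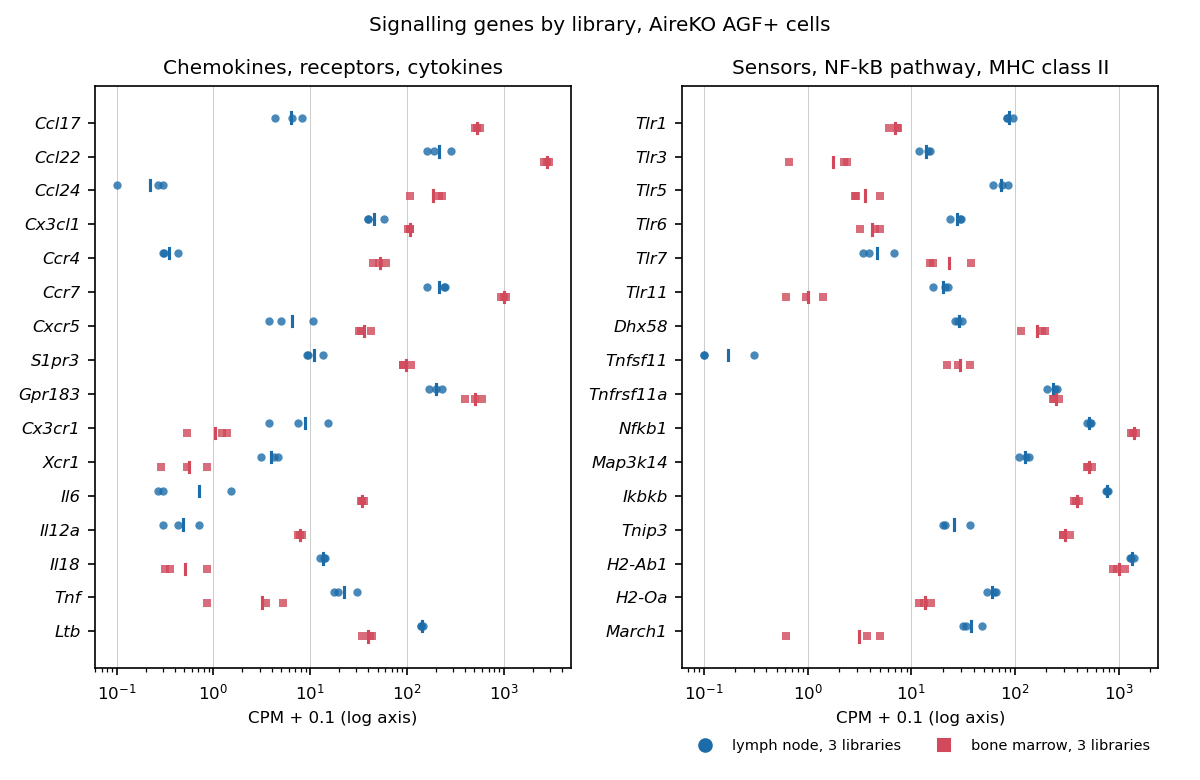
CPM plus 0.1 on a log axis for chemokines, receptors and cytokines (left) and for sensors, NF-kB pathway and MHC class II genes (right); circles are lymph node and squares marrow libraries of AireKO AGF+ cells, short bars are group means. The squares of Ccl22 lie farthest to the right on the left, while Tnfrsf11a is the one gene drawn whose groups overlap.

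Among DC transcription factors 11 of 25 were lower and 7 higher. Nfil3, a circadian and lineage repressor, had 8.56, 9.06 and 11.9 CPM in lymph node against 346, 268 and 319 in marrow (log2 fold change -4.99 ± 0.22, adjusted p = 1.4e-12), and the nuclear receptor Nr4a3 had 32.7, 51.4 and 53.2 CPM in lymph node against 955, 717 and 861 in marrow (log2 fold change -4.21 ± 0.27, adjusted p = 2.0e-10). Rel, an NF-kB subunit, fell by 1.03 on the log2 scale. Zeb2, a repressor needed by cDC2 and plasmacytoid DCs, was higher, at 323, 333 and 299 CPM in lymph node against 151, 101 and 74.9 in marrow (log2 fold change 1.54 ± 0.18, adjusted p = 7.5e-07), as was Spi1, the myeloid factor PU.1, at 121, 121 and 139 CPM in lymph node against 69.3, 72.9 and 71.1 in marrow.

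Genes of antigen presentation changed modestly. Of 19 MHC class II genes 9 were higher and 3 lower, with a median of 0.32. H2-Ab1 had 1290.4, 1418 and 1311 CPM in lymph node against 887, 962 and 1157 in marrow (log2 fold change 0.42 ± 0.13, adjusted p = 0.0131). H2-Aa, which did not pass, had 1604, 1760.2 and 1738 CPM in lymph node against 1458, 1383 and 1621 in marrow. The call of H2-Ab1 was lost without lymph node replicate 2 and without marrow replicate 1 or 2 (adjusted p = 0.0562 to 0.0922), and without the libraries numbered 2 (adjusted p = 0.19). Differences of 2-fold or more were called in 2 members, March1 and H2-Oa, both higher in lymph node. Among transcriptional regulators in the list, Ciita and Nfyb were lower, with log2 fold changes of -0.89 ± 0.24 and -0.83 ± 0.21. Rfx5 and Rfxank were higher (0.74 ± 0.14 and 0.92 ± 0.18), and Rfxap did not pass. March1, a ubiquitin ligase that sends surface MHC class II to degradation, had 48.2, 31.2 and 33.3 CPM in lymph node against 4.9, 3.65 and 0.511 in marrow (log2 fold change 3.56 ± 0.36, adjusted p = 7.0e-08). H2-Oa, a chain of the inhibitor H2-O, had 62.4, 53.8 and 65.4 CPM in lymph node against 13, 11.8 and 15.3 in marrow (log2 fold change 2.18 ± 0.20, adjusted p = 2.3e-08), while its partner chain H2-Ob moved down, at 132, 122 and 113 CPM in lymph node against 162, 194 and 236 in marrow. Of 17 MHC class I genes 6 were higher and 2 lower. H2-D1 and H2-K1, the classical heavy chains, had log2 fold changes of 0.87 ± 0.13 and 0.62 ± 0.12, and H2 heavy chains share sequence, so reads may be split among them. Tested against a 1.5-fold change, 3 class II and 3 class I genes were higher.

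Interferon response genes varied among the marrow libraries. Of 30 genes, 13 were lower in lymph node and 3 higher, with a median of -0.63, but 4 were lower without marrow replicate 2 and 19 were lower without marrow replicate 1. In KI/+ cells 18 were lower and 2 higher. Stat2, a signal transducer of interferon receptors, had 131, 141 and 129 CPM in lymph node against 228, 438 and 234 in marrow, with marrow replicate 2 highest. Summed, the list ran from 1918 to 4230.0 CPM across the marrow libraries and from 1954 to 2243 CPM in lymph node. Ifi209, an interferon-induced member of the p200 family, was higher in lymph node, at 78.7, 93.7 and 112 CPM in lymph node against 21.7, 36.9 and 15.9 in marrow (log2 fold change 1.93 ± 0.30, adjusted p = 2.4e-05).

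Metabolic genes were lower in lymph node in several lists. For glycolysis 19 of 25 were lower and 5 higher (3 without the libraries numbered 2), with a median of -1.22. Pgk1 had 16.8, 18.3 and 21 CPM in lymph node against 243, 127 and 297 in marrow (log2 fold change -3.57 ± 0.22, adjusted p = 7.7e-11), and the other glycolytic enzyme genes Pkm, Tpi1, Eno1 and Ldha had log2 fold changes of -3.03 to -2.32. In each of these 5 genes marrow replicate 3 was the highest and marrow replicate 2 the lowest of the marrow libraries. Eno2, another enolase, and Pfkfb3, which raises glycolytic flux, were higher in lymph node, at 220.5, 239 and 249.6 CPM in lymph node against 60.1, 63.7 and 71.1 in marrow and 472, 598 and 407 CPM in lymph node against 169, 155 and 159.8 in marrow. Pgk1 and other glycolytic genes have processed pseudogenes, with which reads could be shared.

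For cholesterol synthesis 19 of 26 were lower and 4 higher, with a median of -1.25. Sqle, squalene epoxidase, had 15.3, 12.9 and 15 CPM in lymph node against 98.6, 91.3 and 102 in marrow (log2 fold change -2.75 ± 0.20, adjusted p = 8.2e-10). Hmgcs1, which starts the pathway, had 28.4, 35 and 41.1 CPM in lymph node against 158, 144 and 147 in marrow (log2 fold change -2.10 ± 0.18, adjusted p = 1.1e-08). Idi1, at a middle step, fell by 3.08 on the log2 scale. Nr1h3, the oxysterol receptor LXR alpha, and Abcg1, a sterol exporter, rose by 3.61 ± 0.43 and 1.27 ± 0.21. Of the 20 promoters of this list in the RefSeq set 15 (75.0%) held a CCAAT box, beside 38.4% of promoters of genes tested. All 10 mitochondrially encoded genes tested were lower, with a median of -1.71, among them mt-Co1 at 1541, 1540.4 and 1716 CPM in lymph node against 4597, 4151 and 4826 in marrow (log2 fold change -1.50 ± 0.18, adjusted p = 6.7e-07). Nuclear genes of the respiratory chain were lower for 15 of 29 and higher for 2, and 9 were lower without the libraries numbered 2.

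Cytoskeletal genes had 21 of 29 members lower and 0 higher, with a median of -0.52. Actg1, cytoplasmic actin, had 167, 167 and 213 CPM in lymph node against 549, 470.0 and 624 in marrow (log2 fold change -1.59 ± 0.18, adjusted p = 5.5e-07). Cfl1, the actin-severing cofilin, had 255, 268 and 311 CPM in lymph node against 655, 642 and 650.2 in marrow. Tmsb10, a thymosin, had 29, 26.2 and 36.4 CPM in lymph node against 145, 127 and 121 in marrow. Tested against a 1.5-fold change, 8 were lower. Integrins were even, 10 higher and 10 lower of 29. Itgb3, the beta chain of the vitronectin receptor, was the strongest of them, at 43.6, 67.3 and 35.4 CPM in lymph node against 599.6, 518 and 689.8 in marrow (log2 fold change -3.63 ± 0.33, adjusted p = 1.5e-08). Vcam1 was opposite, at 71.1, 73.9 and 89.6 CPM in lymph node against 13, 17.2 and 9.46 in marrow (log2 fold change 2.55 ± 0.25, adjusted p = 5.5e-08).

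Apoptosis regulators were lower for 14 of 23 and higher for 3. Bcl2, the survival factor, had 11.7, 11.5 and 11.7 CPM in lymph node against 74.2, 77.2 and 116 in marrow (log2 fold change -2.93 ± 0.36, adjusted p = 1.2e-06). Bcl2l11, the killer protein Bim, was lower too, at 94.6, 91.2 and 141 CPM in lymph node against 262, 271 and 259 in marrow. Birc5 fell by 5.13 on the log2 scale and is also a mitotic gene. Bbc3, which encodes Puma, was higher, at 11.7, 10.5 and 11.5 CPM in lymph node against 3.96, 3.65 and 4.09 in marrow. Immediate early and heat shock genes were divided, 10 higher and 12 lower of 28. Hspa1b, inducible Hsp70, had 53.9, 82.6 and 138 CPM in lymph node against 2.07, 1.72 and 1.02 in marrow (log2 fold change 5.77 ± 0.59, adjusted p = 9.4e-08). Fos had 9.9, 71.9 and 36.4 CPM in lymph node against 1.13, 1.93 and 3.58 in marrow and Fosb had 6.71, 47.9 and 20.8 CPM in lymph node against 0.377, 1.07 and 1.02 in marrow, with several-fold spread among the lymph node libraries. Hspa8, constitutive Hsc70, went the other way, at 279, 358 and 503 CPM in lymph node against 856, 830.1 and 868 in marrow. The protocol text names enzymatic digestion for lymph nodes alone, and the tissue and that step cannot be told apart in these genes.

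**Figure D4:**
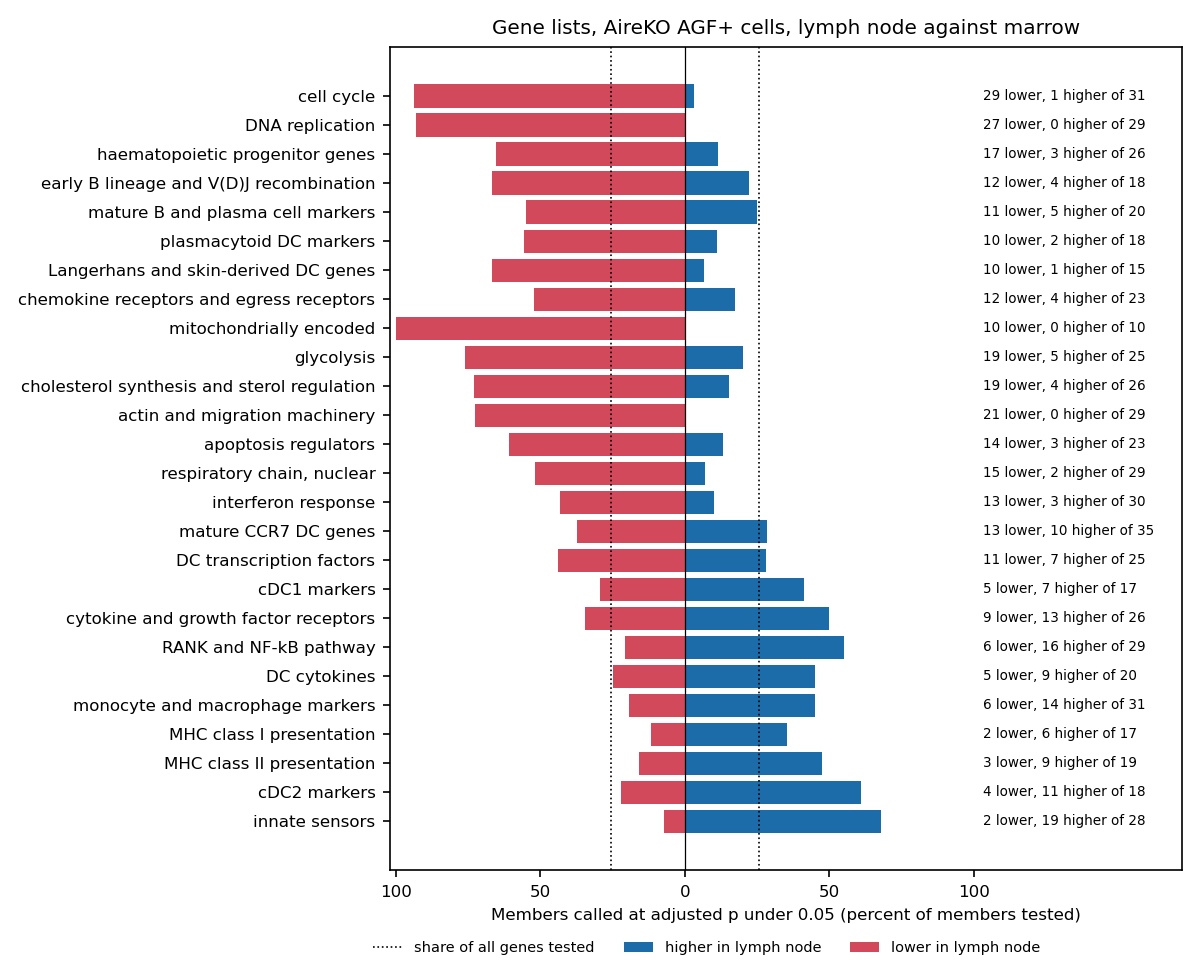
Share of tested members of 26 gene lists called higher (blue, right) or lower (red, left) in lymph node in AireKO AGF+ cells, with counts at the right; dotted lines mark 25.7%, the share of all genes in each direction. Cell cycle (29 lower of 31) and mitochondrially encoded genes (10 of 10) lie far left and innate sensors (19 higher of 28) far right.

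Aire transcripts were counted in both tissues of AireKO mice, at 22.8, 26.6 and 26.3 CPM in lymph node against 11.5, 12.4 and 19.7 in marrow (log2 fold change 0.81 ± 0.19, adjusted p = 0.00165), with no overlap between the groups. The gene lies at chr10:78030022-78043610 on the minus strand (GRCm38, GENCODE vM21). In KI/+ cells Aire stood at 114 ± 16.7 CPM in lymph node and 101 ± 19.2 CPM in marrow (SD, n = 3), with a log2 fold change of 0.17 ± 0.17. Which exons these reads cover cannot be read from gene counts, so this level is no check of the mutant allele beyond being lower. Without the libraries numbered 2 the AireKO difference no longer passed (log2 fold change 0.65, adjusted p = 0.0728). Dnmt3l, the neighbouring gene for a DNA methyltransferase cofactor, had 58.7, 52 and 70.7 CPM in lymph node against 94.2, 77.2 and 138 in marrow (log2 fold change -0.77 ± 0.22, adjusted p = 0.00541), opposite in direction, and its call was lost without marrow replicate 3 (-0.53, adjusted p = 0.0567). In KI/+ cells its log2 fold change was 0.12. For both genes the test of genotype against tissue gave an unadjusted p under 0.05 (0.0217 for Aire and 0.0181 for Dnmt3l), which did not pass adjustment over all genes. Of 17 tested neighbours of the Aire locus, 6 were higher (3 without the libraries numbered 2) and 5 lower, beside 25.7% of all genes in each direction. The 14 genes taken from earlier results of these data as raised in lymph node AGF+ cells had 10 higher and 1 lower, a direction that this choice favoured, led by Tcte1 at 68.1, 63.8 and 60.6 CPM in lymph node against 10.7, 10.1 and 12 in marrow.

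Tissue differences in KI/+ cells ran alongside: 4694 genes were higher (27.2%) and 4671 lower (27.1%). Of the calls, 7591 were made in both genotypes in the same direction, which is 85.5% of those in AireKO cells and 81.1% of those in KI/+ cells. A single gene, the potassium channel Kcnk7, was called in opposite directions, at 5.7, 5.24 and 9.66 CPM in lymph node against 13.4, 7.93 and 14.6 in marrow in AireKO cells, with overlapping groups, and leaving out replicate 1 of either tissue, lymph node replicate 2 or marrow replicate 3 ended its AireKO call (adjusted p = 0.128 to 0.152). Across genes the log2 fold changes correlated with r = 0.94 and rho = 0.92, a description over genes that are not independent. No gene passed the test of whether the tissue difference itself depended on genotype (edgeR, smallest adjusted p = 1), while 456 genes (2.64%) had an unadjusted p under 0.05. DESeq2 and limma voom likewise called 0, with 383 and 1724 genes at an unadjusted p under 0.05. The smallest p belonged to Rarb, a retinoic acid receptor (0.80 ± 0.56 in AireKO against 4.79 in KI/+), followed by Chrna2, a nicotinic receptor subunit (-3.57 ± 0.55 against -0.83), and none is a call.

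**Figure D5:**
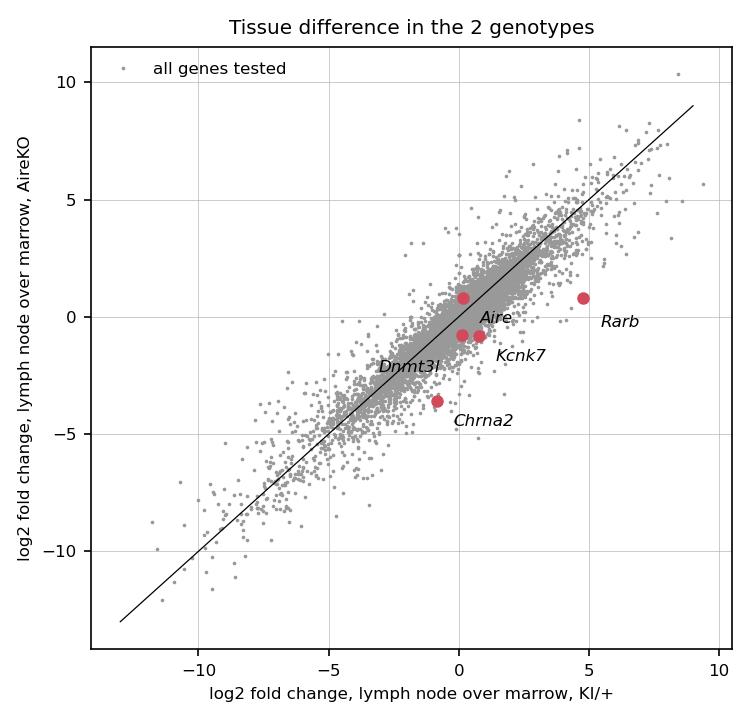
Log2 fold change of lymph node over marrow for every gene tested, in KI/+ cells (horizontal) and AireKO cells (vertical); the line marks equal values and red points are named genes. Points follow the line (r = 0.94), and Rarb lies below it on the right.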

How the data were processed

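RNA sequencing libraries were made from 1.0 ng of total RNA (integrity number above 7, NuGEN Ovation SoLo, paired-end 150 bp), per the labels' protocols. The authors deposited raw counts per gene for 55471 genes. Per the submitters' processing notes, the tools included STAR 2.7.3a, HTSeq 0.11.2 and fastp 0.20.0, with edgeR 3.38.1, on the build mm10. The gene annotation was not given in the sources used here, nor was the treatment of strand and of multi-mapped reads. No GENCODE vM21 symbol was found for 327 genes, which held 0.0139% of counts.

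From the counts of all 21 libraries in 7 groups, edgeR 4.0.16 (R 4.3.3) was fitted with TMM scaling, its expression filter by group (17265 genes) and a quasi-likelihood test, with Benjamini-Hochberg adjusted p under 0.05. All groups shared the estimate of spread. Contrasts were lymph node against marrow in AireKO and in KI/+ AGF+ cells and their difference. CPM use TMM effective sizes, 0.876 to 1.09 of the totals. The gene lists and the comparison were chosen with earlier results of these data known. Genes named were Aire, Dnmt3l, the 14 largest rises and falls (at least 2-fold, mean log2(CPM + 1) of at least 4, no overlap), up to 5 members of each list with the smallest adjusted p, members against the majority, first members not called, and the smallest p of the interaction. Some genes these rules take are not reported here. Ccr7, Cd80, Cd86, Relb, Mki67, Mcm6, Cdt1, Orc1, Fos, Kcnk7, Ciita, Clec10a, Mgl2 and genes at 0 counts were named after their values were seen. On simulated counts of this contrast over 17265 genes, 62 of 100 2-fold and 89 of 100 4-fold changes were recovered, with 5 false calls. The simulated tissues differed in those changed genes alone, whereas 51.4% of genes were called in the data. These figures need not hold for the real contrast. Deviations of same-numbered libraries correlated at -0.04 to 0.02 across the tissues, with Xist, Tsix and the Y-linked genes left out. In all 7 groups the library numbered 2 was the one with high Xist (2028 to 4008 CPM), so the numbers do follow these genes. These values cannot exclude pairing. The main fit did not take the numbers as pairs, and a fit with the replicate block is given below. Alternatives used DESeq2 1.42.0 and limma 3.58.1, and the tables Python 3.11.15 with pandas 2.3.3 and matplotlib 3.10.9.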

Additional observations from a re-analysis of the deposited data

How the results depend on the processing

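The counts of 4436 higher and 4439 lower genes stayed within 1.5 times under every alternative except 2: tested against a 1.5-fold change, 2156 were higher and 2633 lower (4789 in all), and without the libraries numbered 2, 2879 were higher. Fewer genes can pass the first by its construction, and fewer samples enter the second. Leaving out 1 AireKO AGF+ library at a time gave 3600 to 3956 higher and 3987 to 4313 lower genes (7621 to 8269 in all). The count of 0 for the interaction of tissue and genotype became 17 with no filter on low counts, where 35464 genes were tested, and was 0 under the others; the cause was not tested. Fitted with the replicate block, 4714 genes were higher and 4692 lower, and none of the 179 genes followed under the alternatives changed its call. Of 3216 values of these genes under alternatives, 3153 kept their direction and side of the threshold, 47 no longer passed, 11 came to pass, and 5 turned in sign, none of them calls. The last were Cd74 (0.03), Orc1 (0.09) and Tnfrsf11a (0.07) with library size alone, and Orc1 without the libraries numbered 2 (0.09) and without marrow replicate 2 (0.04). With 1 library left out at a time, Orc1 ranged from -0.21 to 0.04. The counts of list members under these alternatives were added after the data were examined. At 3.91 to 5.96 counts behind 1 CPM, genes near 1 CPM rest on few counts, which limits what can be called there.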

Other observations

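Other gene groups in AireKO AGF+ cells are read against the 25.7% of all genes called in each direction. Genes of eicosanoid and histamine handling were lower in lymph node for 9 of 17 and higher for 5 (3 without the libraries numbered 2). Alox5, which starts leukotriene synthesis, had 2.01, 0.403 and 0.822 CPM in lymph node against 26.4, 26.4 and 16.9 in marrow (log2 fold change -4.34 ± 0.52, adjusted p = 8.2e-07). Tbxas1, thromboxane synthase, had 13.3, 13.1 and 8.84 CPM in lymph node against 71.6, 66.3 and 33.5 in marrow (log2 fold change -2.28 ± 0.24, adjusted p = 1.2e-07). Both histamine receptors named by the rule were higher, Hrh1 at 7.89, 6.04 and 6.58 CPM in lymph node against 0, 1.07 and 0.256 in marrow and Hrh2 at 16.9, 13.1 and 19.5 CPM in lymph node against 3.39, 6 and 6.14 in marrow. In the list of retinoic acid and vitamin D genes 4 of 12 were higher and 4 lower. Vdr, the vitamin D receptor, had 7.89, 7.45 and 23.4 CPM in lymph node against 336, 281 and 296 in marrow (log2 fold change -4.57 ± 0.31, adjusted p = 3.2e-10), while Cyp27a1, a mitochondrial sterol and vitamin D hydroxylase, had 133, 114 and 93.3 CPM in lymph node against 17.9, 18.4 and 17.1 in marrow (log2 fold change 2.67 ± 0.26, adjusted p = 3.8e-08). Aldh1a2, which makes retinoic acid, had 3.69, 3.02 and 5.14 CPM in lymph node against 168, 37.5 and 21.2 in marrow, with marrow replicate 1 far above the others.

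In the list of Wnt, Notch and Hedgehog genes 8 of 24 were higher and 7 lower, shares near those of all genes. The Notch receptor Notch4 had 34.2, 35 and 39.9 CPM in lymph node against 2.45, 4.07 and 5.88 in marrow (log2 fold change 3.17 ± 0.26, adjusted p = 4.3e-09) and the ligand Jag1 101, 108 and 117 CPM in lymph node against 25.3, 32.6 and 25.1 in marrow, whereas the ligands Jag2 and Dll1 were lower, at 6.71, 5.04 and 6.37 CPM in lymph node against 63.3, 68.6 and 107 in marrow and 0.503, 2.01 and 0.411 CPM in lymph node against 18.5, 15.7 and 21 in marrow. Genes known from red cells and platelets were lower for 5 of the 7 that passed the filter and higher for 0. Tfrc, the transferrin receptor of dividing and iron-demanding cells, had 27.3, 25 and 18.3 CPM in lymph node against 207, 206 and 257 in marrow (log2 fold change -3.24 ± 0.31, adjusted p = 3.6e-08). Car2, a carbonic anhydrase, had 4.36, 3.22 and 4.93 CPM in lymph node against 116, 137 and 94.6 in marrow. The adult globin genes Hba-a1 and Hba-a2 were at 0 counts in all 6 libraries. Among lysosomal genes, 7 of 25 were lower (4 without the libraries numbered 2) and 4 higher, 44.0% called beside 51.4% of all genes. Cst3, the protease inhibitor cystatin C, had 143, 134 and 186 CPM in lymph node against 1244, 1034 and 1267 in marrow (log2 fold change -2.94 ± 0.22, adjusted p = 1.3e-09), beside the protease Ctsl at 7.89, 5.84 and 6.17 CPM in lymph node against 76.7, 98.9 and 85.1 in marrow. Cd33, a sialic acid-binding inhibitory receptor, had 52.2, 31.8 and 15.6 CPM in lymph node against 157, 237 and 185 in marrow (log2 fold change -2.52 ± 0.30, adjusted p = 6.0e-07). It was 1 of 6 lower members of the lectin and paired receptor list, in which 10 of 30 were higher, 53.3% called in all.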
